A study of Mus musculus with 12 samples.

Results

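Loss of Syt14 can act differently in different brain regions, and the comparison described here asks for which genes it did: for every gene, the knockout effect in the hippocampus was set against the knockout effect in the cerebellum of the same animals. All 12 libraries of the series, chosen by their tissue and genotype labels, entered it. They came from 3 mice of the genotype SYT14 knockout and 3 of the genotype WT (wild type), and each of the 6 animals, identified by the animal number in the labels, gave 1 hippocampus and 1 cerebellum library. The 4 groups were therefore hippocampus knockout, hippocampus wild type, cerebellum knockout and cerebellum wild type, with 3 animals in each. The allele, the way it was made, and the strain, age and sex of the mice were not in the labels read for this work, which name no treatment either.

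Synaptotagmins are membrane proteins with paired C2 domains that take part in vesicle trafficking and fusion. Syt14 belongs to the members of the family that do not bind calcium, and its human counterpart has been linked to an inherited cerebellar ataxia. The hippocampus is built around glutamatergic pyramidal and granule neurons of the forebrain, the cerebellum around its own granule cells and the Purkinje cells that they drive.

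The quantity reported throughout is a difference of log2 ratios: knockout over wild type in the hippocampus minus knockout over wild type in the cerebellum. A negative value means that the knockout level, relative to wild type, was lower in the hippocampus than in the cerebellum, and a value of 0 means the same ratio in both. The difference was fitted with a term for each animal, so that what is common to both tissues of an animal drops out. The effects within each tissue come from a fit of the 4 groups without that term, so their subtraction can differ from the tested difference in the second decimal.

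Depth was 24932098 to 30504437 counts per hippocampus library and 24355572 to 34971359 per cerebellum library. Levels are given as CPM, counts scaled by the TMM-adjusted library size as in edgeR, on which a floor of 3 counts was worth 0.0808 to 0.126. The tissues were distinct by their markers. Gabra6, a receptor subunit of cerebellar granule cells, was at 555 to 629 CPM in the cerebellum and at most 0.0393 CPM in the hippocampus, and Neurod6, a transcription factor of forebrain pyramidal neurons, was at 185.14 to 205 CPM in the hippocampus and 6.78 to 7.98 CPM in the cerebellum. Every hippocampus library carries the lane name L1 and every cerebellum library L4 in its column name, so lane and tissue cannot be told apart, but lane does not differ between the genotypes within a tissue. The cerebellum libraries of the knockout animals differed in genes of neighbouring tissues. Ttr, the transthyretin of the choroid plexus, stood at 876, 1590 and 0.598 CPM in knockout animals 1, 2 and 3, against 1730, 2400 and 927 CPM in the wild-type animals. Slc6a2, the noradrenaline transporter of brainstem neurons, stood at 6.37, 14.5 and 0.232 CPM against 1.98, 0.431 and 0.517 CPM. Nrgn, a protein of forebrain neurons, was at 47.0 CPM in the cerebellum of knockout animal 1 and at 2.43 to 3.76 CPM in the other 5 cerebella.

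Of 19027 genes tested, 2 differed between the tissues in their response to the knockout at an adjusted p under 0.05, which is 0.0105% of the genes, and both differences were negative. They were Cck, which encodes the neuropeptide cholecystokinin, and Fosl2, which encodes the AP-1 transcription factor Fra-2. Both rose in the knockout cerebellum and differed from wild type by -0.002 and 0.10 log2 units in the hippocampus. At an unadjusted p under 0.05 there were 987 genes, or 5.19%, of which 423 had a positive and 564 a negative difference. Leaving out knockout animal 3 raised the number of genes called from 2 to 52, of which 48 were negative, and leaving out wild-type animal 2 or 3 lowered it to 1.

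Within the tissues, the 4-group fit called 0 genes for the hippocampus and 4 for the cerebellum, or 0.021%. The 4 were Fosl2, Cck, C4b and the noncoding 1700016P03Rik, all higher in the knockout. C4b and 1700016P03Rik were called in the cerebellum only, and for neither did the difference between the tissues pass: it was -0.65 ± 0.11 (SE) for C4b (adjusted p = 0.439) and -1.45 ± 0.35 for 1700016P03Rik (adjusted p = 0.816). The median SE of the difference over all genes was 0.152, against 0.112 and 0.11 for the effects in hippocampus and cerebellum, and 69.7% of the genes had a 95% interval of the difference that lay between -1 and 1.

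Syt14 itself, on chr1:192891233-193035775 of GRCm38 on the minus strand (ENSMUSG00000016200), was read in every knockout library. In the hippocampus it was at 29.2, 28 and 30.6 CPM in the knockout animals and at 38.5, 38.9 and 38.2 CPM in the wild-type animals. In the cerebellum it was at 30.6, 30.7 and 30.3 CPM against 33.8, 33.4 and 38.2 CPM. The groups did not overlap in either tissue, and the gap was wider in the hippocampus. The log2 effect was -0.40 ± 0.06 in hippocampus and -0.20 ± 0.06 in cerebellum, and the difference was -0.20 ± 0.09, with a 95% interval of -0.40 to 0.01 (unadjusted p = 0.0594, adjusted p = 0.95). The within-animal ratio of the tissues overlapped between the genotypes, and the exact permutation test over the 6 animals gave p = 0.2, where 0.1 is the smallest value possible. Reads remaining over the gene do not show whether a protein is made. Counts over the whole gene cannot tell which part of it the allele changes.

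Cck (ENSMUSG00000032532, chr9:121489824-121495694, minus strand) encodes a prohormone that is cut into the cholecystokinin peptides, which are released by forebrain interneurons and pyramidal cells and act on the receptors Cckar and Cckbr. The sequence before its start is shown because Cck carried the clearest difference between the tissues. It covers the 250 bases before the RefSeq start, chr9:121495695-121495944 in GRCm38.p6, read 5′ to 3′ on the minus strand. Capitals mark matches to the motifs searched on both strands: TGACGTCA and TGCGTCA (cyclic AMP response element and a variant), TGANTCA (AP-1), CACGTG (E-box) and GGGCGG (Sp1).
Cck: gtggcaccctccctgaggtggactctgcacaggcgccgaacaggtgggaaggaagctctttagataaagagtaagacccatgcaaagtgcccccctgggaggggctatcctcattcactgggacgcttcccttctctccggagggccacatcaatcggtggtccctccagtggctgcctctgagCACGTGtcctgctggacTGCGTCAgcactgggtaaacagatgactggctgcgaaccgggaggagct
TGCGTCA began 49 bases and CACGTG 66 bases before the start. Among 32851 RefSeq promoters of the same length, 1.75% held TGCGTCA and 6.02% held CACGTG, and the shares for the motifs with no match here were 1.55% for TGACGTCA, 6.75% for TGANTCA and 32.7% for GGGCGG. A match describes the letters only.

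In the hippocampus Cck stood at 248, 246 and 252 CPM in the knockout animals and at 248, 236 and 263 CPM in the wild-type animals. In the cerebellum, where it is far less abundant, it stood at 54.5, 49.3 and 53.9 CPM in the knockout and at 29.6, 25.9 and 29.9 CPM in the wild type. The hippocampus groups lay on top of each other, while every knockout cerebellum exceeded every wild-type cerebellum by a wide margin. Hippocampus means were 248.54 ± 2.99 and 248.97 ± 13.8 CPM, cerebellum means 52.6 ± 2.88 and 28.5 ± 2.21 CPM (knockout and wild type, SD, n = 3 each). The effect was -0.002 ± 0.057 in hippocampus and 0.89 ± 0.06 in cerebellum, a 1.85-fold rise (adjusted p = 6.69e-06).

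The difference in the Cck response was -0.89 ± 0.07, with a 95% interval of -1.04 to -0.74 (adjusted p = 0.00116). Seen within animals, the hippocampus exceeded the cerebellum by 3.06, 3.18 and 3.14 log2 units in the wild type and by 2.18, 2.32 and 2.22 in the knockout. The genotypes thus did not overlap, as for 10.3% of all genes tested, 5.39% with the knockout lower. The exact permutation test over animals gave its smallest possible p of 0.1. All 14 alternatives called the difference, at values of -0.93 to -0.86. Cckbr, the main cholecystokinin receptor of the brain, stood at 9.12 to 20.6 CPM in the hippocampus and at 1.39 to 2.76 CPM in the cerebellum, and its difference was -0.23 ± 0.41. Cckar stayed at or below 0.17 CPM in all 12 libraries.

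Fosl2 (ENSMUSG00000029135, chr5:32135801-32157842, plus strand) encodes a partner of Jun proteins in AP-1 that is induced by neuronal activity and by other stimuli. Its window before the RefSeq start lies inside the first exon of the GENCODE annotation and is not shown. In the hippocampus it was at 74.3, 78.0 and 68.0 CPM in the knockout and at 68.7, 69.3 and 67.0 CPM in the wild type. In the cerebellum it was at 17.9, 17.9 and 20.4 CPM against 9.11, 8.29 and 8.03 CPM. As for Cck, the hippocampus groups overlapped and the cerebellum groups stood clear of each other.

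The effect on Fosl2 was 0.10 ± 0.06 in hippocampus and 1.15 ± 0.08 in cerebellum, a 2.22-fold rise (adjusted p = 6.63e-06). The difference was -1.045 ± 0.113, with a 95% interval of -1.29 to -0.80 (adjusted p = 0.0155). The within-animal ratios of the genotypes did not overlap, as for 10.3% of all genes tested. The call held in 11 of 14 alternatives. It was lost without wild-type animal 1 (-1.09, adjusted p = 0.0752), without wild-type animal 2 (-1.02, adjusted p = 0.215) and without wild-type animal 3 (-1.02, adjusted p = 0.169). The lowest adjusted p, 7.39e-18, came from the fit with no filter on low counts, which called 273 genes. DESeq2 gave 3.1e-08, and the other alternatives ran from 0.000371 to 0.215.

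Both genes belong to the hippocampus-enriched transcripts, 6.44-fold (Cck) and 5.63-fold (Fosl2) higher in the hippocampus than in the cerebellum, and the effect of the knockout narrowed that gap. Both were as high in the cerebellum of knockout animal 3, which had the lowest Ttr and Slc6a2 levels, as in the cerebella of knockout animals 1 and 2. Without animal 3 the differences were -0.88 for Cck and -0.93 for Fosl2, and without animal 1 they were -0.86 and -1.09. The forebrain gene Nrgn stood at 47.0, 3.65 and 3.39 CPM in the cerebella of knockout animals 1, 2 and 3. The part of neighbouring tissue in the Cck and Fosl2 values was not tested.

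**Figure D1:**
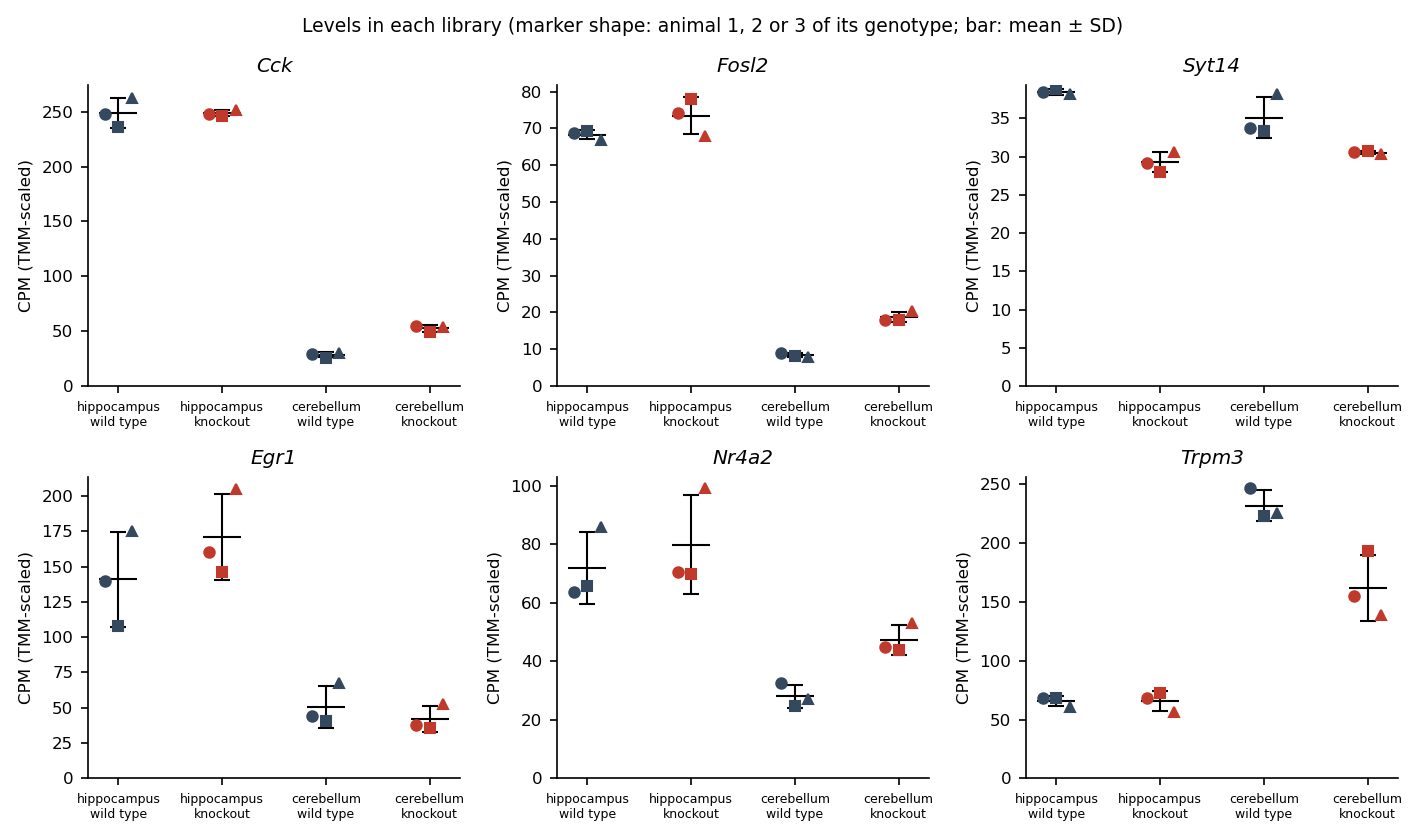
Levels in CPM (linear axes from 0) of Cck, Fosl2, Syt14, Egr1, Nr4a2 and Trpm3 in each library by tissue and genotype, with 1 symbol shape per animal number and bars for the mean ± SD of 3 animals. Cck and Fosl2 are level in the hippocampus and higher in all 3 knockout cerebella (49.3 to 54.5 CPM for Cck) than in any wild-type cerebellum (25.9 to 29.9 CPM).

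After these, no gene passed at an adjusted p under 0.05, and the genes next in order are given with their values. On the positive side, Trpm3, a cation channel of neurons and of the choroid plexus, was at 68.3, 72.8 and 56.5 CPM in the knockout hippocampus and 68.2, 68.1 and 61.0 CPM in the wild type. In the cerebellum it was at 155, 193 and 139 CPM against 247, 223 and 226 CPM. The cerebellum groups did not overlap and the hippocampus groups did, and the difference was 0.52 ± 0.08 (adjusted p = 0.272). Summed over the 18 choroid plexus and ependyma markers, the same 3 knockout cerebella had 1070, 1970 and 57.9 CPM and the wild-type cerebella 2180, 2940 and 1190 CPM, and the part of this in the Trpm3 value was not tested. Without knockout animal 3 the difference was 0.52 with an adjusted p of 0.0296, and without animal 1 it was 0.46 with an adjusted p of 0.819.

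Egr1, a zinc finger transcription factor of the immediate early response, illustrates what pairing the tissues does. It stood at 160, 146 and 205 CPM in the knockout hippocampus and at 140, 108 and 175 CPM in the wild type. In the cerebellum it stood at 37.7, 35.3 and 52.9 CPM against 43.8, 40.4 and 67.7 CPM. The groups overlapped in each tissue, but animal 3 of each genotype was the highest in both tissues, and the hippocampus exceeded the cerebellum by 2.08, 2.05 and 1.95 log2 units in the knockout and by 1.67, 1.41 and 1.37 in the wild type. The difference was 0.55 ± 0.09 (adjusted p = 0.288), from effects of 0.28 ± 0.20 in hippocampus and -0.27 ± 0.21 in cerebellum. Without knockout animal 3 it was 0.58 (adjusted p = 0.0257), and no other left-out animal gave an adjusted p under 0.05. It was 0.635 without wild-type animal 1 (adjusted p = 0.0883) and 0.484 without wild-type animal 3 (adjusted p = 0.994).

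On the negative side the next gene was C4b, complement component C4, at 46.0, 42.5 and 44.1 CPM in the knockout hippocampus and 41.3, 52.4 and 47.8 CPM in the wild type. In the cerebellum it was at 19.1, 19.8 and 20.3 CPM against 13.5, 13 and 13.6 CPM, with a clear gap between the genotypes. C4b has a closely similar neighbour, C4a, so how the authors' counting split reads between these genes is uncertain. Ryr3, an intracellular calcium release channel, had a difference of -0.61 ± 0.11 (adjusted p = 0.679), with cerebellar levels of 41.3, 38.1 and 35.6 CPM in the knockout and 29.3, 25.4 and 21.2 CPM in the wild type. Lpl, lipoprotein lipase, was 33.4-fold higher in the hippocampus than in the cerebellum. Its cerebellar level was 2.95, 2.22 and 1.56 CPM in the knockout against 0.713, 0.943 and 0.608 CPM, and its difference was -1.68 ± 0.31 (adjusted p = 0.679). It was -1.86 without knockout animal 3 (adjusted p = 0.0257) and -1.33 without knockout animal 1 (adjusted p = 0.819). No other left-out animal gave Lpl an adjusted p under 0.05.

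The remaining genes in this order had adjusted p-values of 0.753 to 0.897. Among those with a negative difference were the cell adhesion gene Cdh13 (-0.53 ± 0.11), the synaptic vesicle gene Sv2c (-0.42 ± 0.09), Vstm2a (-0.38 ± 0.07) and the microglial gene Fcrls (-0.71 ± 0.15). Crhbp, which encodes the binding protein of corticotropin-releasing hormone, had -2.49 ± 0.53 from 23, 20 and 8 counts in the knockout cerebella against 4, 3 and 3 counts, and Scml4 had -1.74 ± 0.36. Slc6a2 belongs here by rank, but it had 0 counts in every knockout hippocampus and at most 5 in the wild type, so no ratio is given. Of these 12 leading negative genes, Cck, Fosl2, Lpl, Ryr3, Vstm2a, Cdh13, Scml4, Crhbp and Fcrls were 4.03- to 103-fold higher in the hippocampus.

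With a positive difference followed the matrix protein gene Matn2 (0.78 ± 0.16), the ciliary gene Nphp4 (0.54 ± 0.11), the collagen gene Col9a3 (0.67 ± 0.17), Fabp7, a fatty acid binding protein of Bergmann glia (0.49 ± 0.13), the kinase gene Sbk1 (0.38 ± 0.09), the small GTPase gene Rasl11b (0.32 ± 0.08), Vat1l (0.31 ± 0.08) and Foxred2 (0.30 ± 0.08). Fabp7 had cerebellar levels of 18, 18.7 and 16.7 CPM in the knockout and 21.7, 21.2 and 29.6 CPM in the wild type, without overlap, while its hippocampus groups overlapped at 12.2 to 18.2 CPM. Efhb (2.32 ± 0.58) rested on levels of 0.199 to 1.13 CPM. Hes3 was at 0 to 0.21 CPM in the hippocampus, near the floor, and no ratio is given. The plot of within-animal differences shows leading genes picked by the p-value of that same difference, so the separation of their genotypes there is a description. Hes3 and Slc6a2 are left out of it, and for Slc6a2 the within-animal ratios of the genotypes overlapped.

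**Figure D2:**
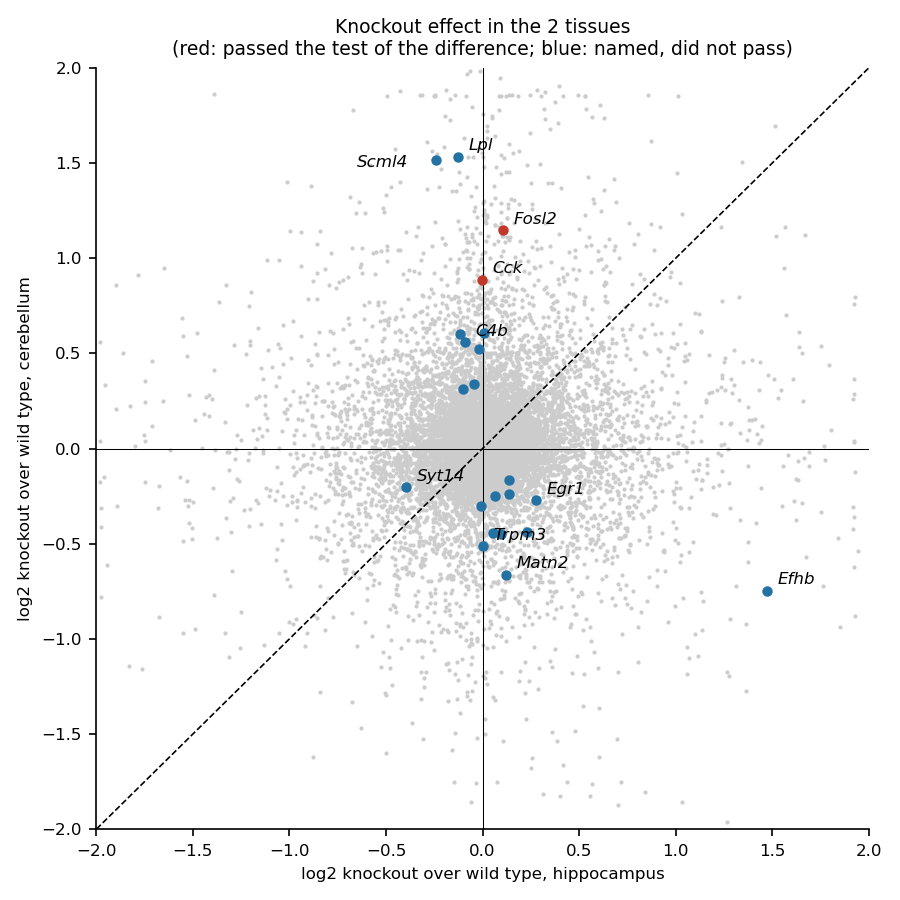
Knockout effect (log2 knockout over wild type) in the hippocampus, horizontal, against the cerebellum, vertical, for the 18842 genes within the axes, with the dashed line of equal effects. Red marks Cck and Fosl2, whose difference passed the test, and blue marks Syt14 and the other leading genes that lie within the axes, which did not pass; Cck and Fosl2 lie near 0 in the hippocampus and at 0.89 and 1.15 in the cerebellum.

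**Figure D3:**
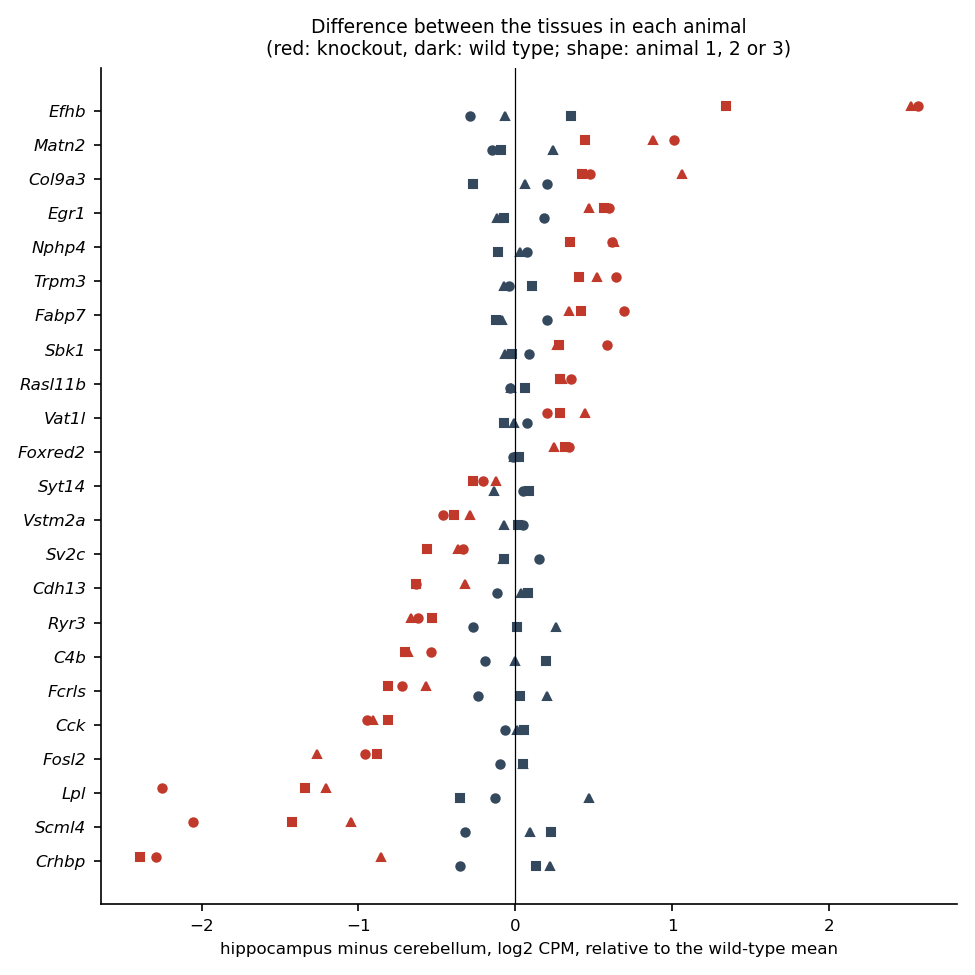
Hippocampus minus cerebellum in log2 CPM for each animal, relative to the wild-type mean, for Syt14 and the leading genes other than Slc6a2 and Hes3. Red points are knockout animals, dark points wild-type animals, and shapes give the animal number. The 3 knockout animals lie close together for Cck (2.18 to 2.32 before centring) and spread more widely for genes of low level such as Lpl and Crhbp.

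Immediate early genes are transcribed within minutes of synaptic or growth factor stimulation, and Fosl2 is one of the 28 on the list used here. As a group they did not differ between the tissues in 1 direction. The median effect was 0.13 in hippocampus and 0.31 in cerebellum, and the median difference was -0.20, beside -0.004 over all genes tested. Of the 28, 19 had a negative difference; 7 were negative and 4 positive at an unadjusted p under 0.05, where all genes had 2.96% and 2.22%. The transcription factor gene Nr4a2, for example, was at 45.0, 43.9 and 53.3 CPM in the knockout cerebella against 32.5, 24.8 and 27 CPM, and its difference was -0.61 ± 0.15 (adjusted p = 0.816).

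The other members below that unadjusted threshold were chosen after their values were seen. Negative were the nuclear receptor genes Nr4a3 (-1.46 ± 0.37) and Nr4a1 (-0.20 ± 0.08), the phosphatase gene Dusp1 (-0.34 ± 0.11), and the transcription factor genes Egr3 (-1.17 ± 0.40) and Npas4 (-0.67 ± 0.25). Positive, beside Egr1, were Junb (0.31 ± 0.10), Egr4 (0.30 ± 0.11) and Arc (0.45 ± 0.17), the last a regulator of receptor endocytosis at synapses. Members of the same immediate early programme thus had differences of opposite sign, and of them only Fosl2 passed at the adjusted threshold. In the fit without the animal term, 19 members were again negative and 9 positive. At an unadjusted p under 0.05 that fit had 4 negative and 0 positive members. Fos, the founding member, was at 42.3, 40.0 and 48.5 CPM in the knockout cerebella and at 20.2, 16.9 and 39.4 CPM in the wild type, with a difference of -0.37 ± 0.19. Without wild-type animal 3 the median of the list was -0.09, and without wild-type animal 1 it was -0.25.

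Neuropeptides and granins, the cargo of dense-core vesicles, had a median difference of -0.48 over 25 members. Of these, 20 were negative, beside 51.0% of all genes. The median effect was -0.002 in hippocampus and 0.60 in cerebellum. Members at an unadjusted p under 0.05 numbered 7, all negative, beside 2.96% of all genes, and Cck alone passed the adjusted threshold. Scg2, secretogranin 2, was at 192.19, 170 and 146 CPM in the knockout cerebella against 136, 126 and 120 CPM, without overlap, and its difference was -0.34 ± 0.08 (adjusted p = 0.816). Vgf, another granin, was at 47.8, 40.3 and 24.5 CPM against 28.2, 21.4 and 22.2 CPM, so that knockout animal 3 lay within the wild-type range (-0.63 ± 0.22, adjusted p = 0.945).

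The neuropeptide values moved with the cerebella of knockout animals 1 and 2. The median member stood 0.68 and 0.42 log2 units above the wild-type mean in those cerebella and 0.05 above it in that of animal 3. Without knockout animal 1 the median difference was -0.21, with 3 members at an unadjusted p under 0.05, and without animal 3 it was -0.69, with 10 negative and 1 positive. Among the neurotrophins and their receptors, Bdnf, whose protein supports neurons and synapses, was at 24.4, 22.7 and 20.9 CPM in the knockout cerebella and 18.3, 16.2 and 15.1 CPM in the wild type, without overlap, and at 46.7 to 52.7 CPM in all hippocampi. Its difference was -0.40 ± 0.11 (adjusted p = 0.886), and 8 of the 12 members tested were negative, with a median of -0.08.

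Genes enriched in the hippocampus had mostly negative differences, as Cck and Fosl2 did. There were 1325 genes at least 4-fold higher in the hippocampus over both genotypes. Of them, 884, or 66.7%, had a negative difference, against 51.0% of all genes, and the median was -0.17. At an unadjusted p under 0.05 there were 161 negative and 30 positive, beside 2.96% and 2.22% of all genes. The 874 cerebellum-enriched genes had the opposite tendency, with 516 positive and 358 negative differences and a median of 0.09.

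The shift of the hippocampus-enriched genes lay in particular cerebella. The median gene stood 0.29 and 0.15 log2 units above the wild-type mean in the cerebella of knockout animals 1 and 2 and at -0.03 in that of animal 3, while the wild-type cerebella lay between -0.01 and 0.02. Their summed level was 10100, 8890 and 8370 CPM in the knockout cerebella and 8600, 8230 and 8470 CPM in the wild type. Without knockout animal 1 the negative members numbered 784 and the median was -0.08, and without animal 3 they numbered 904 of 1323 with a median of -0.26. Of the 52 genes called without animal 3, 38 were hippocampus-enriched. Among all 19015 genes of the main fit that could be tested without that animal, 1323 were. The part of this library pattern in single genes, Cck and Fosl2 included, was not tested.

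Genes of brainstem neurons had the lowest median difference of the 39 lists, at -1.11 over the 12 of 20 listed members that could be tested, with 9 negative. The median effect was 0.05 in hippocampus and 1.90 in cerebellum. This again followed knockout animals 1 and 2: the listed genes summed to 103, 133 and 69.7 CPM in the knockout cerebella and to 78.9, 80.8 and 72.0 CPM in the wild type. Slc5a7, the choline transporter, was at 4.97, 5.35 and 0.697 CPM against 1.35, 0.296 and 0.426 CPM, and Slc10a4, a vesicle protein of cholinergic and monoaminergic neurons, was at 2.39, 3.82 and 0.0996 CPM against 0.673, 0.189 and 0.182 CPM. The knockout and wild-type ranges overlapped for both. Without knockout animal 3 the differences were -3.08 for Slc5a7 and -3.46 for Slc10a4, with adjusted p-values of 0.0242 and 0.0234, against -2.32 and -2.90 with all animals (adjusted p = 0.945 and 0.897). No other left-out animal gave either gene an adjusted p under 0.05, and without wild-type animal 2 they had -1.96 and -2.76 (adjusted p = 0.955 for both). The median of the list was -1.04 without knockout animal 1, -0.92 over 10 members without animal 2 and -1.50 without animal 3. With a filter of at least 1 CPM only 6 members remained, 4 of them negative, and the median was -0.48. In the hippocampus the sums were 15.8 to 26.0 CPM, and Phox2a and Hoxb3 had 0 counts in all 6 libraries.

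Choroid plexus and ependyma genes had the opposite sign, with all 18 positive and a median of 1.12, from effects of -0.14 in hippocampus and -1.02 in cerebellum. Only Abca4, a lipid transporter, had an unadjusted p under 0.05 (1.40 ± 0.46, adjusted p = 0.945), at 7.14, 14.9 and 2.46 CPM in the knockout cerebella against 22, 25.6 and 13.3 CPM. The knockout cerebella ranged from 57.9 to 1970 CPM in sum, the wild-type cerebella from 1190 to 2940 CPM. Without knockout animal 3 the median was 0.33, with 13 of 18 positive, without wild-type animal 2 it was 0.67, and without knockout animal 2 it was 1.97, with 10 members at an unadjusted p under 0.05. The amount of neighbouring tissue in a library, the number of cells of a type and the RNA per cell cannot be told apart in bulk tissue. This holds here and for the cell type lists that follow.

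Microglial genes had a median difference of -0.29, with 15 of 17 negative and 7 of them, all negative, at an unadjusted p under 0.05, where 51.0% of all genes were negative and 2.96% were negative at that threshold. The effect was -0.04 in hippocampus and 0.22 in cerebellum in the median. The subunits of complement C1q led: C1qa was at 13.6, 15.2 and 14 CPM in the knockout cerebella against 8.24, 10.8 and 10.8 CPM, C1qb at 13.5, 13.5 and 13.7 CPM against 9.94, 9.86 and 9.52 CPM, and C1qc at 15.1, 13 and 12.4 CPM against 10.1, 10.6 and 10.1 CPM. For each the knockout cerebella stood above all wild-type cerebella, and in the hippocampus the knockout mean was below the wild-type mean. Their differences were -0.57 ± 0.13, -0.53 ± 0.13 and -0.54 ± 0.12, with adjusted p-values of 0.816, 0.816 and 0.762.

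The summed level of the microglial list was 208, 216 and 197 CPM in the knockout cerebella and 174, 173 and 184.01 CPM in the wild type, without overlap, and no listed marker was at 0 in any group. Leaving out any of the 6 animals left 13 to 16 of 17 members negative, and the median was -0.18 without knockout animal 1 and -0.18 without knockout animal 2. The homeostatic marker P2ry12 had a difference of -0.11 ± 0.10, the receptor gene Csf1r -0.07 ± 0.10, and Tmem119 was at 5.71 to 6.37 CPM in the knockout cerebella and 5.65 to 6.77 CPM in the wild type.

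Genes of the glial reaction, which astrocytes and microglia raise in injury and inflammation, had 19 of 21 negative differences, beside 51.0% of all genes, and a median of -0.42. The median member stood 0.24, 0.38 and 0.01 log2 units above the wild-type mean in the cerebella of knockout animals 1, 2 and 3. Without wild-type animal 2 the median difference was -0.23, and without knockout animal 3 it was -0.59. Gfap, the intermediate filament of astrocytes, was at 202, 210 and 196.02 CPM in the knockout cerebella against 176, 162 and 151 CPM, and at 324 to 357 CPM in the hippocampus, where the genotypes overlapped. Its difference was -0.31 ± 0.07 (adjusted p = 0.762). Cd68, a lysosomal protein of phagocytes, was at 3.42, 3.31 and 3.95 CPM against 2.18, 2.02 and 2.34 CPM (-0.86 ± 0.23, adjusted p = 0.897). The 14 astrocyte markers had a median difference of 0.02 with 10 positive.

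Endothelial and pericyte genes were the only one of the 39 lists with all members negative, 19 of 19, and here the hippocampus carried the larger effect: the median was -0.23 in hippocampus and 0.07 in cerebellum, with a median difference of -0.30. At an unadjusted p under 0.05 there were 12, all negative, beside 2.96% of all genes. In 13 the animals of the genotypes did not overlap, all 13 with a lower knockout value. Of all genes, 10.3% had no overlap, 5.39% lower and 4.95% higher. Itm2a was at 37.3, 37.5 and 39.1 CPM in the knockout hippocampi against 43.3, 47.5 and 45.0 CPM, and at 47.3 to 50.7 CPM against 42.3 to 49.3 CPM in the cerebellum. The vascular receptor phosphatase gene Ptprb was at 44.9, 51.0 and 49.9 CPM against 59.3, 61.9 and 63.6 CPM, and Eng, endoglin, at 17.7, 18.5 and 17.8 CPM against 22.1, 23.4 and 24.5 CPM.

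In these 3 genes the knockout hippocampi lay below all wild-type hippocampi, and the cerebella overlapped. The differences were -0.35 ± 0.09, -0.40 ± 0.10 and -0.42 ± 0.11, with adjusted p-values of 0.846, 0.886 and 0.897, so no member passed. Summed over the list, the knockout hippocampi had 618, 678 and 659 CPM and the wild-type hippocampi 728, 756 and 796 CPM, while the cerebella had 881 to 905 CPM and 842 to 883 CPM. Over the 14 alternatives 18 or 19 members were negative, and the number at an unadjusted p under 0.05 ran from 6, without wild-type animal 3, to 15.

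**Figure D4:**
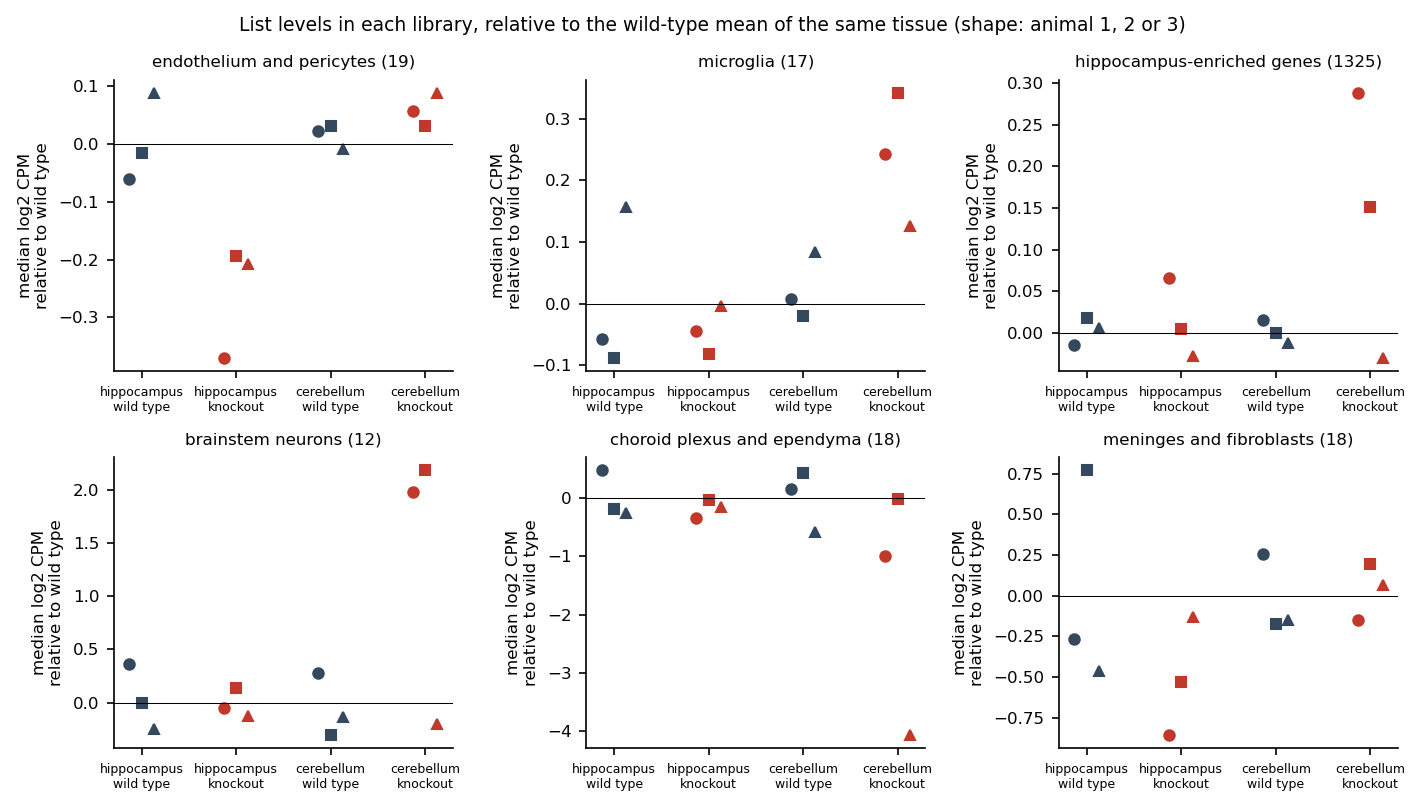
Median log2 CPM of the members of 6 lists in each library, relative to the wild-type mean of the same tissue; dark points are wild-type and red points knockout animals, with 1 shape per animal number and separate vertical scales. Endothelial genes separate the genotypes in the hippocampus (-0.37 to -0.19 against -0.06 to 0.09), whereas hippocampus-enriched, brainstem and choroid plexus genes single out some of the knockout cerebella.

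Meningeal and fibroblast genes also had a larger effect in the hippocampus, with medians of -0.57 there and 0.04 in the cerebellum and a median difference of -0.53. Of 18 members, 16 were negative, beside 51.0% of all genes, and 5 were negative at an unadjusted p under 0.05, beside 2.96%. This depended on wild-type animal 2. The list summed to 247, 287 and 478 CPM in the knockout hippocampi and to 426, 882 and 379 CPM in the wild type, and without wild-type animal 2 the median was -0.03 with 9 of 18 negative. Aldh1a2, the retinoic acid synthesising enzyme of the meninges, was at 2.43, 3.64 and 3.79 CPM in the knockout hippocampi against 4.88, 10.2 and 4.13 CPM (-1.05 ± 0.39, adjusted p = 0.945).

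Genes of the interferon response and MHC class I had 24 of 28 negative differences, beside 51.0% of all genes. Their median difference was -0.22, from -0.17 in hippocampus and 0.09 in cerebellum. Usp18, a protease induced by interferon, was at 0.462, 0.601 and 0.723 CPM in the knockout hippocampi against 1.34, 1.1 and 1.42 CPM and at 1.16 to 1.51 CPM against 0.97 to 1.11 CPM in the cerebellum. The genotypes did not overlap in either tissue, in opposite directions, and the difference was -1.52 ± 0.40 (adjusted p = 0.897). H2-D1, an MHC class I heavy chain, had a difference of -0.30 ± 0.09 (adjusted p = 0.929).

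**Figure D5:**
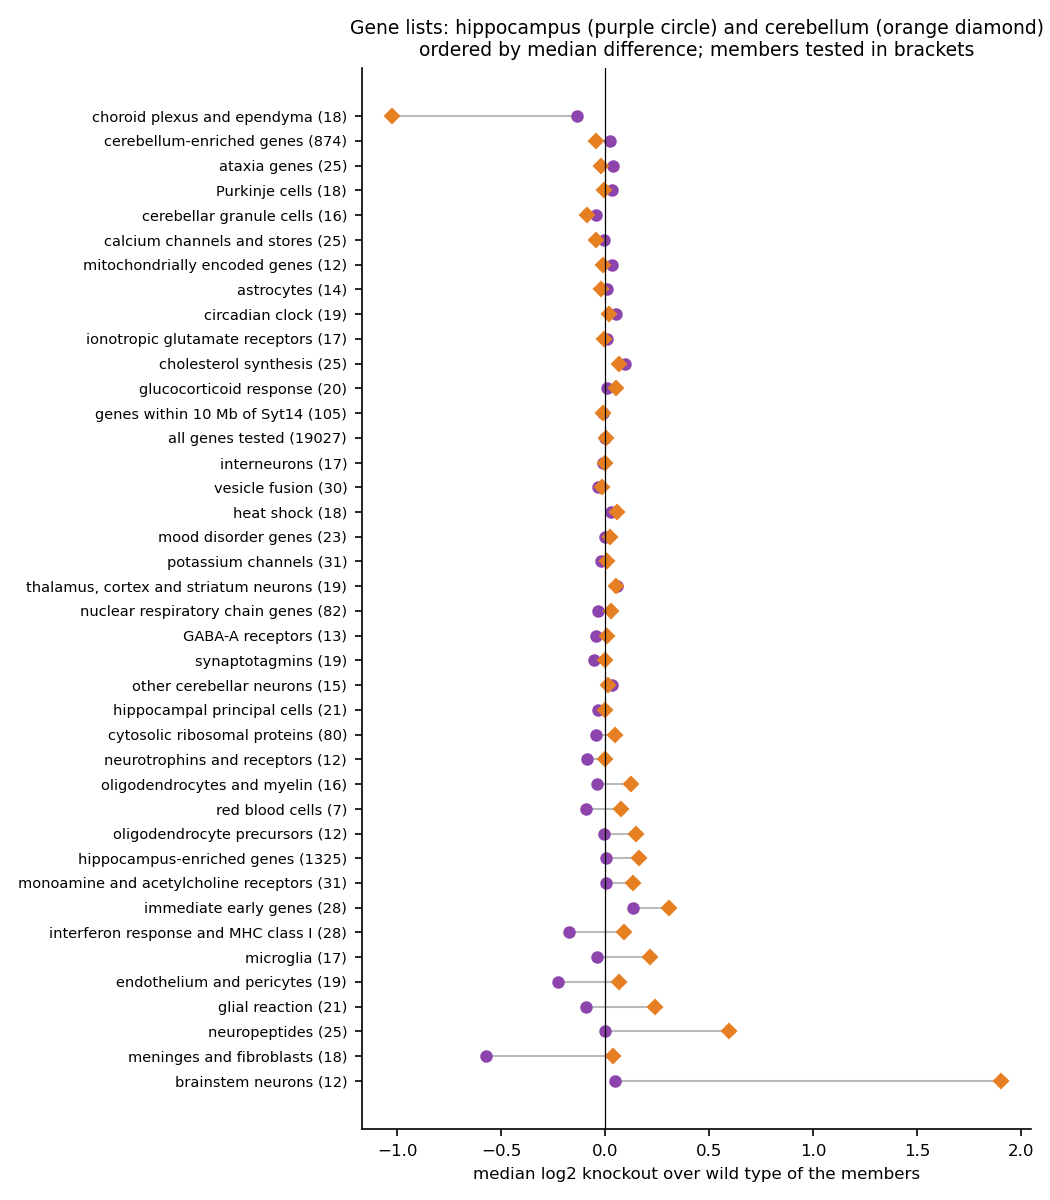
Median log2 ratio of knockout over wild type in the hippocampus (purple circles) and the cerebellum (orange diamonds) for each list, ordered by the median difference, with the number of members tested in brackets. Most lists lie near 0 in both tissues; the widest gaps are those of brainstem neurons (0.05 and 1.90) and choroid plexus and ependyma (-0.14 and -1.02).

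The genes nearest to the function of Syt14 had small median differences. Of 19 other synaptotagmins and synaptotagmin-like genes, 0 had an unadjusted p under 0.05, and the median was -0.07. Of them, 14 were negative, beside 51.0% of all genes, and over the left-out animals this ran from 11, as without knockout animal 1, to 17, without knockout animal 2. Syt7, a slow calcium sensor of release, had the smallest p, with a difference of 0.13 ± 0.07 (adjusted p = 0.95). Syt1, the fast calcium sensor, stood at 1760 and 1860 CPM in the knockout and wild-type hippocampus and at 537 and 513 CPM in the cerebellum in the mean, with -0.15 ± 0.10. In the vesicle fusion machinery 1 of 30 members was positive and 1 negative at an unadjusted p under 0.05, and the median was -0.02. Those were Rph3a, a Rab effector on synaptic vesicles (0.18 ± 0.07), and Sv2c.

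The 17 ionotropic glutamate receptor genes had a median of 0.01, which ran from -0.06 without wild-type animal 3 to 0.05 without wild-type animal 2, and 0 members at an unadjusted p under 0.05. Among 13 GABA-A receptor genes 11 were negative, with a median of -0.07 (-0.15 without wild-type animal 3); Gabrg3 had -0.52 ± 0.19 and Gabrd, a subunit of extrasynaptic receptors, 0.19 ± 0.07. Of 31 monoamine and acetylcholine receptor genes, 25 were negative, with a median of -0.18. Their median level stood 0.36 and 0.17 log2 units above the wild-type mean in the cerebella of knockout animals 1 and 2 and at -0.13 in that of animal 3, and the median difference was -0.10 without knockout animal 1 and -0.38 without animal 3. The serotonin receptor gene Htr2a was at 3.2, 2.62 and 1.93 CPM in the knockout cerebella against 1.19, 1.72 and 2.07 CPM, and the dopamine receptor gene Drd2 at 4.27, 1.7 and 0.631 CPM against 0.634, 0.727 and 0.76 CPM. For both the cerebellum of knockout animal 1 was the highest, and the cerebellar levels of the genotypes overlapped. Without animal 1 the difference of Drd2 was -0.91, against -1.64 with all animals. No member of these lists passed (adjusted p = 0.945 for both genes).

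Among channels, the potassium channel genes had a median of -0.04. Of 31 members, 4 were negative and 2 positive at an unadjusted p under 0.05, beside 2.96% and 2.22% of all genes. Kcna4, a rapidly inactivating channel, was at 4.6, 4.7 and 2.99 CPM in the knockout cerebella against 2.42, 2.26 and 2.28 CPM (-0.79 ± 0.19, adjusted p = 0.816), and at 32.4 to 41.3 CPM in the hippocampus. The calcium channel and store genes had a median of 0.03. Cacna1h, a T-type calcium channel, had -0.60 ± 0.15, and Atp2b3, a plasma membrane calcium pump, had 0.21 ± 0.09, with cerebellar levels of 316, 321 and 338 CPM in the knockout against 398, 364 and 388 CPM.

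Lists of housekeeping and metabolic genes had small medians. The 80 cytosolic ribosomal protein genes had 73 negative differences, but the median was -0.07, and without wild-type animal 3 it was -0.02 with 49 negative. The 82 nuclear respiratory chain genes had 62 negative and a median of -0.07, which was -0.02 with 47 negative without wild-type animal 3 and -0.03 with 49 negative without knockout animal 1. The 12 mitochondrially encoded genes had a median of 0.03. Cholesterol synthesis genes had a median of 0.01 and effects of 0.10 and 0.07 in the tissues. Circadian clock, heat shock and glucocorticoid response genes had medians of 0.02, -0.02 and 0.01.

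Lists of the neurons that define the tissues had medians near 0. Cerebellar granule cell genes had a median of 0.04 over 16 members, Purkinje cell genes 0.06 over 18, hippocampal principal cell genes -0.07 over 21 and interneuron genes -0.01 over 17. Car8, a Purkinje cell protein linked to ataxia, had a difference of -0.18 ± 0.12, and its cerebellar level was 1500, 1620 and 1740 CPM in the knockout against 1520, 1460 and 1810 CPM. Hereditary ataxia genes had a median of 0.06 and mood disorder genes one of -0.03. Oligodendrocyte and myelin genes had 15 of 16 negative and a median of -0.13, but without knockout animal 1 the median was 0.02 with 7 negative.

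Genes within 10 Mb of Syt14 on its chromosome, which can stay linked to an engineered allele through breeding, had 51 of 105 negative differences and a median of 0.006. Sertad4, a neighbour in that window, was at 19.8, 16.2 and 18.8 CPM in the knockout hippocampi against 23.5, 24.4 and 21.8 CPM, without overlap, and at 13.2 to 15.7 CPM against 12.5 to 14.5 CPM in the cerebellum. Its difference was -0.45 ± 0.12 (adjusted p = 0.915).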

How the data were processed

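The authors deposited unnormalized counts of reads per gene in a table for each tissue, made, per the submitters' processing notes, with Trimmomatic 0.39, STAR 2.7.10 and featureCounts 2.0.3 on mm10/GRCm38. Which annotation and strand option featureCounts used is not given in the sources used. Of 54446 identifiers, 54409 matched GENCODE M21. Promoter sequences are from RefSeq (GRCm38.p6).

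The difference was tested with edgeR 4.0.16 in R 4.3.3: filterByExpr by the 4 groups (minimum count 10, total 15), TMM factors, and the two-sided quasi-likelihood test of tissue:genotype with 1 term per animal (4 residual df, common coefficient of variation 7.36%). The threshold was an adjusted p (Benjamini-Hochberg) of 0.05. Errors are SE unless named SD. The labels put the same 6 animals in both tissues. An animal's deviations from its group means correlated between its tissues at r = 0.037 to 0.144 over 14099 genes. Compared with the other animals of its genotype, this was the highest value in 6 of 6 animals. Deviations within a group are tied by their shared mean, so these comparisons were not independent.

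By rule the text names Syt14, Cck, Fosl2, the 12 genes of smallest p in each direction with a mean of at least 1 CPM in a group, predicted genes left out, and up to 3 members per list. Any other gene was picked with its values in view. The members and the 39 lists were chosen with earlier results of these data known. Lists were described, not tested. Over all genes tested 51.0% of the differences were negative, which is the share to set beside each list count. Alternatives were 2 other scalings, 2 filters, DESeq2 1.42.0, limma-voom 3.58.1, 2 other blocks and leaving out each animal.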

Additional observations from a re-analysis of the deposited data

Results flagged for a closer look

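The response of Cck to the knockout differed between hippocampus and cerebellum by a test of the difference itself, at -0.889 on the log2 scale (adjusted p = 0.00116, edgeR quasi-likelihood). The response of Fosl2 differed in the same test at -1.045 (adjusted p = 0.0155). For both genes the within-animal ratios of the genotypes did not overlap, as for 10.3% of all genes tested, 5.39% with the knockout lower. These ratios come from the same counts as the test. Both differences came from higher levels in the 3 knockout cerebella.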

How the results depend on the processing

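Cck was called under all 14 alternatives and Syt14 under none. Leaving out 1 animal gave ranges of -0.928 to -0.862 for Cck, -1.124 to -0.93 for Fosl2 and -0.269 to -0.154 for Syt14, and 1 to 52 genes called. Fosl2 missed the threshold without wild-type animal 1 (-1.094), 2 (-1.02) and 3 (-1.025). With no filter on low counts, 273 genes of 35179 tested were called, 69 positive and 204 negative. DESeq2 called 5 (Cck, Fosl2, Trpm3, Egr1 and Ryr3). Adding the replicate number as a block within each tissue called 4 (Cck, Fosl2, Egr1 and Kcnq5), whereas the fit with no replicate block, which leaves out the animal term, called 2, Cck and Fosl2. The correlation of deviations between animals of the same number was 0.02, 0.142 and 0.227. Knockout animals 2 and 3 correlated best with the wild-type animal of their own number, and knockout animal 1 with wild-type animal 2 (0.082). With so few animals these values cannot decide whether the numbers tie animals across genotypes. Among 124 named genes the difference changed sign for Eomes (-2.044 to 0.031 over the left-out animals, positive without wild-type animal 1), Vip (-3.803 to 0.244, positive without knockout animal 1) and Hbb-bs (-0.285 to 0.041, positive without wild-type animal 3, and 0.006 without knockout animal 2). Of 546 list medians under alternatives, 30 changed sign. The cause of these changes was not tested. Genes under the floor of 3 counts, 0.0808 to 0.126 CPM, give no usable ratio, and 3 animals per genotype cannot reach an exact permutation p under 0.1.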
